A study of Mus musculus with 10 samples.

Results

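The effect of losing Dicer on the messages that ribosomes occupy was examined in mouse embryonic stem cells, by setting 2 Dicer knockout libraries against 2 wild type (WT) libraries. The measure was ribosome footprints, the stretches of mRNA that a translating ribosome shields from nuclease, counted per gene. These 4 libraries belong to a series of 10, in which WT and 4 knockouts have 2 libraries each. The knockouts are labelled Dicer, Drosha, Dgcr8, and Ago1 and Ago2 together, and all 10 libraries entered 1 fit. Of the 11011 genes in the table, 10978 had enough counts to be tested. All cells were of the line E14, of 129/Ola background and blastocyst origin, grown in serum with the cytokine LIF on gelatine. Cycloheximide, which freezes elongating ribosomes, was given shortly before lysis in every group. The WT group carries no deletion. The genotype of the knockout group is given as Dicer knockout, with no statement of which part of the gene was removed, whether the line is 1 clone, or whether the 2 libraries came from separate cultures, so the p-values reflect the spread between these samples alone, which may be technical. A further 2 groups, the Drosha knockout and the double knockout of Ago1 and Ago2, both E14 and grown in the same way, serve below to show where the Dicer knockout differs.

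Dicer is the cytoplasmic ribonuclease that cuts the hairpin precursors of microRNAs (miRNAs) into their mature form, and it also cuts long double-stranded RNA. A mature miRNA sits in an Argonaute protein and pairs through its seed, bases 2 to 8 from the 5′ end, with sites in the 3′ untranslated region (UTR) of mRNAs, which are then degraded and translated less. Mouse embryonic stem cells carry mainly miRNAs of the miR-290 and miR-302 clusters, which share a seed and are known for keeping the cells cycling rapidly, and miRNAs of the miR-17 family, whose seed is offset from it by 1 base. Let-7 is known as the miRNA of differentiated cells and is held back in stem cells by Lin28a.

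The mature sequences of the miRNAs that the site results turn on are given here from RefSeq on GRCm38.p6, with the seed in capitals, to show which letters are shared. The first 5 have the seed AAGUGCU, and miR-290a differs from them in the last base of the seed.
miR-291a-3p: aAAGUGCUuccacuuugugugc
miR-294-3p: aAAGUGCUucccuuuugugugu
miR-295-3p: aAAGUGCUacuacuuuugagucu
miR-302b-3p: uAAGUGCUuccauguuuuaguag
miR-302d-3p: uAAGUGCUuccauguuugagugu
miR-290a-3p: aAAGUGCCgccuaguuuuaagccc
miR-17-5p: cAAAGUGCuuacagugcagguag
let-7a-5p: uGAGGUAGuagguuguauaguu

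Sites for the first seed were searched as AGCACTT on the sense strand of the longest annotated 3′ UTR of each gene, and a site followed by A counted as an 8-base site. The sites of the 5 reported targets that rose (described below) are printed from the annotation on GRCm38, in the direction of the mRNA, with the match in capitals. Rbl2 (chr8:91123819-91123844, plus strand), Lefty1 (chr1:180938202-180938229, plus) and the first site of Zfp148 (chr16:33498235-33498262, plus) are 8-base sites. The second site of Zfp148 (chr16:33499450-33499477, plus) and those of Arid4a (chr12:71098114-71098141, plus) and Casp2 (chr6:42281547-42281574, plus) have 7 matching bases.
Rbl2: tttttcaataaAGCACTTataaatta
Lefty1: actgtatgcgaAGCACTTacatgtatag
Zfp148, first: agttgacatagAGCACTTagaattaatc
Zfp148, second: tggttccactgAGCACTTgatgcatttc
Arid4a: aattttgtggaAGCACTTgctatgtaga
Casp2: tataacctagaAGCACTTgtctctgctc

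Total counts were 11082243 and 23731070 in the WT libraries and 5432599 and 1754710 in the Dicer knockout libraries, so the second Dicer library was the shallowest of the 10. Replicates correlated across genes, which are not independent, with a Pearson r of 0.977 in WT and 0.952 in the Dicer knockout on the log2 of counts per 1000000 (CPM). Levels below are CPM on scaled library sizes, given as the first and second library of each group. Fold changes are fitted log2 values of the Dicer knockout over WT from edgeR's quasi-likelihood test, with standard error (SE) and a p-value adjusted by Benjamini-Hochberg over all 10978 genes. A gene is said to have risen, fallen or been called where the adjusted p is under 0.05. No matched mRNA libraries were used here, so a footprint change includes any change in mRNA amount.

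Loss of Dicer was accompanied by changes in 1220 genes, 11.1% of those tested, of which 807 rose (7.35%) and 413 fell (3.76%). Among the risen genes the median absolute log2 fold change was 2.10 and among the fallen ones 1.80, and 425 risen and 170 fallen genes were past a log2 fold change of 2. Called genes were found at all levels: 167 rose and 72 fell among the 25% of genes with the lowest mean CPM, and 173 rose and 86 fell among the 25% with the highest. Both Dicer libraries lay above both WT libraries in 3585 genes (32.7%) and below both in 3794 (34.6%), called or not. The number of calls depended on each library: it was 360 or 139 without the first or the second WT library and 233 or 527 without the first or the second Dicer library. Of the 1220 genes, 113 kept their call in all 4 of these fits and 635 in none.

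**Figure D1:**
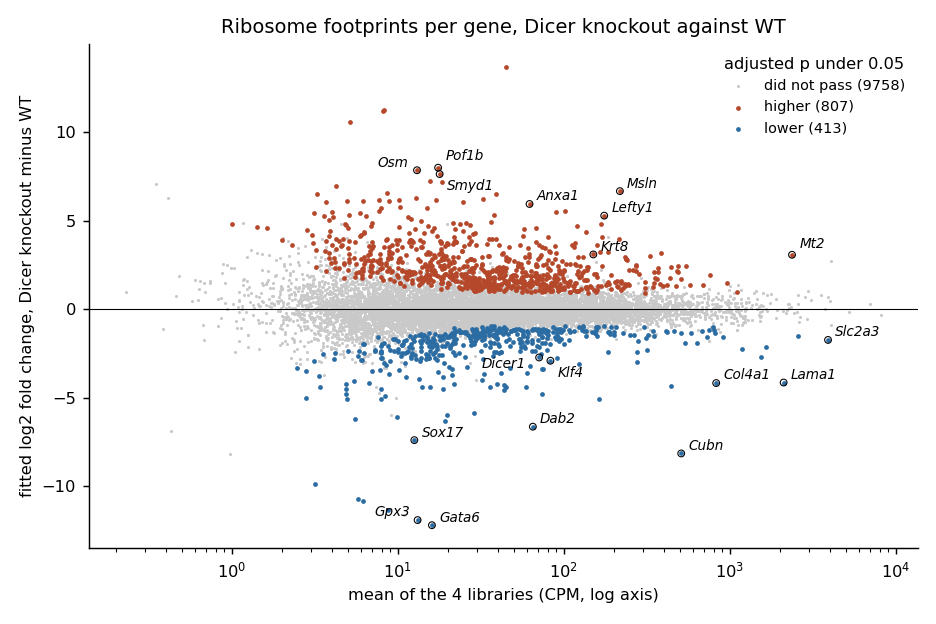
Each point is 1 of 10978 genes, with its mean CPM over the 4 libraries on a log axis and its fitted log2 fold change, Dicer knockout minus WT, on the y axis. The 807 risen genes (red) and 413 fallen genes (blue) spread over the whole range of levels, with Gata6 and Gpx3 farthest down, both of which had 0 counts in the Dicer knockout, so that their fitted values are no measure of size.

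The targeted gene was read first. Dicer1 stood at 122 and 124 CPM in WT and 15.8 and 22.1 CPM in the Dicer knockout, and it fell (log2 fold change -2.72, SE 0.39, adjusted p = 0.0026). The groups were far apart, but footprints were not gone, and counts over the whole gene do not show whether a working protein was made. The call held with each library left out, with adjusted p from 0.012 to 0.04. Against the Ago knockout, a comparison that does not use WT, Dicer1 was also lower (log2 fold change -2.88, SE 0.39, adjusted p = 0.012).

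Among 21 tested genes of miRNA biogenesis, 1 rose and 3 fell (4.76% and 14.3%, beside 7.35% and 3.76% of all genes), with a median of -0.05. The fallen ones include Dicer1, the targeted gene, and the other called members were Dgcr8, Lin28a and Tsnax. Dgcr8, the RNA-binding partner of Drosha in the nuclear step, rose from 32.7 and 33.1 to 64.5 and 76.1 CPM (log2 fold change 1.09, SE 0.26, adjusted p = 0.021). Lin28a, the protein that blocks let-7 maturation, fell from 71.7 and 98.1 to 2.77 and 16.5 CPM (log2 fold change -3.33, SE 0.66, adjusted p = 0.0099), and its Dicer libraries, taken as a ratio, differed from each other more than those of WT. Tsnax, whose product is the partner of the RNA-binding protein Translin, fell from 28.1 and 34.2 to 13.6 and 12.1 CPM. Drosha itself, at 177 and 178 CPM in WT and 229 and 215 CPM in the Dicer knockout, did not pass. Nor did the export receptor Xpo5 (log2 fold change 0.20, adjusted p = 0.76). Tarbp2, the double-stranded RNA-binding partner of Dicer, was at 9.4 and 6.31 CPM in WT and 9.1 and 5.52 CPM in the Dicer knockout and did not pass. The 4 calls became 2 or 1 without the first or the second WT library and 1 or 2 without the first or the second Dicer library.

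Argonautes and their partners act after Dicer. Of 12 Argonaute, Tnrc6 and associated genes, 4 rose and 0 fell (33.3% and 0%, beside 7.35% and 3.76% of all genes). Their median change on the log2 scale was 0.66 beside -0.0035 over all genes. Tnrc6a and Tnrc6b encode the scaffold proteins through which Argonautes recruit deadenylases. Tnrc6b stood at 47 and 41.7 CPM in WT and 158 and 148 CPM in the Dicer knockout (log2 fold change 1.79, SE 0.26, adjusted p = 0.0026). Tnrc6a stood at 28.3 and 20.9 CPM in WT and 87.8 and 103 CPM in the Dicer knockout (log2 fold change 1.95, SE 0.35, adjusted p = 0.0055). Ago1 rose from 14.7 and 14.3 to 80.5 and 64.5 CPM (log2 fold change 2.33). The helicase Mov10, an Argonaute partner, rose from 169 and 227 to 707 and 635 CPM (log2 fold change 1.76). In each of these 4 genes both Dicer libraries were above both WT libraries by more than the replicates differed. Ago2, the Argonaute able to cut its targets, was at 81.9 and 81.9 CPM in WT and 135 and 135 CPM in the Dicer knockout and did not pass (adjusted p = 0.22). Of 27 deadenylation and decapping genes 1 rose and 0 fell (3.7% and 0%, beside 7.35% and 3.76% of all genes), with a median of -0.12. The risen one was Cnot6, a catalytic deadenylase, from 14.8 and 17.8 to 66.6 and 67.3 CPM. The 4 effector calls became 2 or 0 without the first or the second WT library and 2 or 4 without the first or the second Dicer library.

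Genes with a site for the seed AAGUGCU printed above had a higher median change in the Dicer knockout than genes without one. Of 10900 tested genes with an annotated 3′ UTR, 1943 held at least 1 AGCACTT, 17.8% of all, with a median log2 fold change of 0.21, against -0.04 in the 8957 genes without, a difference of 0.26. Of the genes with a site 11.4% rose and 1.96% fell, beside 6.45% and 4.07% of those without. For the 403 genes with an 8-base site the median was 0.34 and the risen share 16.6%. The difference computed from each Dicer library against the WT mean, on log2(CPM + 1), was 0.285 and 0.222, while the same quantity between the 2 WT libraries was -0.0141. Genes are not independent replicates and no test was made on these medians.

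Length of the UTR moves with these values. The median UTR was 2495 bases in genes with the site and 960 in those without, and the median log2 fold change went from -0.12 in the shortest 25% of UTRs to 0.10 in the longest 25%. Within the 4 length classes so made, from shortest to longest, the difference between genes with and without the site was 0.25, 0.29, 0.20 and 0.19. Seeds read in the same way gave a range of differences. For the miR-17 family (site GCACTTT, overlapping the first in GCACTT) it was 0.29 over 1587 genes. The miR-25 and miR-92 family (GTGCAAT) had 0.20, the miR-130 family (TTGCACT) 0.20, miR-290a (GGCACTT) 0.13 and miR-19 (TTTGCAC) 0.17. Of the other families searched as stem cell families, some were below miR-290a. These were the miR-15 and miR-16 family (TGCTGCT) at 0.063, miR-183 (GTGCCAT) at 0.076, miR-148 (TGCACTG) at 0.11 and miR-26 (TACTTGA) at 0.12. The values of miR-21 (ATAAGCT) and miR-96 (GTGCCAA), 0.16 and 0.13, were no lower than that of miR-290a. Families known from epithelia had 0.091 (miR-200b and miR-429, CAGTATT) and 0.060 (miR-141 and miR-200a, CAGTGTT). Let-7 (CTACCTC) had 0.02 over 1162 genes. For miRNAs known from blood, heart or nerve, which are a background here, the values were 0.087 for miR-142 (ACACTAC), 0.099 for miR-155 (AGCATTA), 0.045 for miR-208a (CGTCTTA) and 0.12 for miR-9 (ACCAAAG). Within the same 4 length classes the miR-17 family kept 0.32, 0.24, 0.18 and 0.25, whereas miR-290a had -0.21, 0.099, 0.041 and 0.083, and miR-19 had 0.019, 0.12, 0.051 and 0.18.

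The sites were not alike. The B1 repeat, a short interspersed element that is common in mouse 3′ UTRs, carries these same 7 letters in the context CCAGCACTTGG, and 152 genes had matches with those flanks and no other. Their median log2 fold change was -0.15, with 5.26% risen and 4.61% fallen, so these genes stood slightly below the genes with no site and not above them, although their median UTR was 2462 bases. The 1791 genes with at least 1 match in another context had a median of 0.24, with 11.9% risen and 1.73% fallen. An example of the B1-flanked match is the third in the 3′ UTR of Tgfbr2 (chr9:116085346-116085373, minus strand), whose 28 bases recur letter for letter as a match in Tmtc1 (chr6:148233946-148233973, minus), printed here to set beside the target sites above.
Tgfbr2 and Tmtc1: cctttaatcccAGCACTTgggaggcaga
This split was chosen after the sequences were seen, it rests on flanking letters alone, and a gene with a B1-flanked match was not looked at for other miRNAs.

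**Figure D2:**
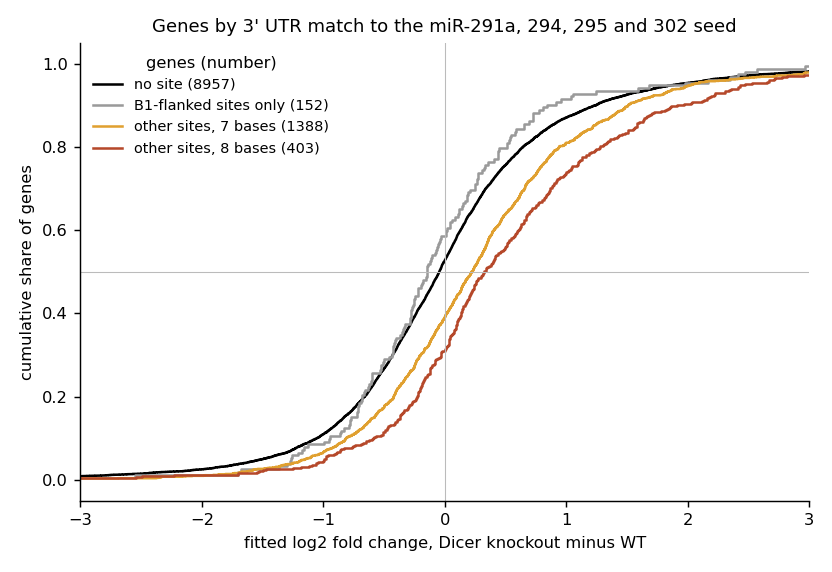
Cumulative share of genes (y axis) against fitted log2 fold change, Dicer knockout minus WT (x axis), for genes grouped by their 3′ UTR match to the seed. The curve of the 403 genes with an 8-base site lies farthest to the right (median 0.34), that of 1388 genes with other 7-base matches lies between (median 0.23), and the 152 genes with B1-flanked matches only (median -0.15) lie on or left of the 8957 genes without a match.

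Of the genes listed as reported targets of the miR-290 or miR-302 cluster, 22 were tested. Of these 5 rose and 0 fell (22.7% risen, beside 7.35% of all genes), with a median of 0.75. Called or not, 17 fold changes were positive and 5 negative. The lowest was that of Dkk1 (log2 fold change -5.97), which did not pass. Rbl2, a pocket protein that holds back the cell cycle and represses DNA methyltransferase genes, was at 3.69 and 3.48 CPM in WT and 28.9 and 29.8 CPM in the Dicer knockout (log2 fold change 3.03, SE 0.50, adjusted p = 0.0042). Its libraries agreed closely within each group. Lefty1, a secreted inhibitor of Nodal, was at 13.6 and 4.4 CPM in WT and 562 and 121 CPM in the Dicer knockout (log2 fold change 5.28, SE 1.22, adjusted p = 0.019). Its Dicer libraries differed widely, and both lay above both WT libraries, as in all 807 risen genes. Zfp148, a zinc finger repressor, rose from 13.3 and 17.3 to 57.7 and 81.6 CPM. Arid4a, a chromatin protein that binds retinoblastoma family members, rose from 34.3 and 32.4 to 101 and 91 CPM. The apoptotic protease Casp2 rose from 15 and 12.6 to 40.1 and 34.2 CPM. Others with AGCACTT sites did not pass, such as Cdkn1a, the cyclin-dependent kinase inhibitor p21, at 34.8 and 54.8 CPM in WT and 75.5 and 66.7 CPM in the Dicer knockout (adjusted p = 0.22). Lefty2 was at 23.3 and 12.1 CPM in WT and 77.7 and 29.8 CPM in the Dicer knockout (adjusted p = 0.26). Ccnd1, cyclin D1, was at 84.2 and 84.7 CPM in WT and 205 and 316 CPM in the Dicer knockout (adjusted p = 0.058). The 5 calls became 1 or 0 without the first or the second WT library and 2 or 4 without the first or the second Dicer library.

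Of 30 cell cycle genes of the G1 to S step 3 rose and 0 fell, with a median of -0.08 (10% risen and 0% fallen, beside 7.35% and 3.76% of all genes). Besides Rbl2, Cdkn2a, the locus of the Ink4a and Arf inhibitors, rose from 6.91 and 6.6 to 46.9 and 48 CPM (log2 fold change 2.81, SE 0.40, adjusted p = 0.0026). Cyclin E2 (Ccne2) rose from 16.4 and 10.2 to 38 and 45.8 CPM. Among 27 p53 targets and regulators 0 were called by edgeR and 8 had an unadjusted p under 0.05 in the same test, with a median of 0.04. DESeq2 called 4 of them and limma-voom 1. Trp53 itself was at 614 and 666 CPM in WT and 728 and 910.2 CPM in the Dicer knockout. Of 24 let-7 targets 2 rose and 3 fell, and the fallen ones were Dicer1, Lin28a and Nras. Dicer1 is the targeted gene, so its fall was set by the design and is no result about let-7 targets. Thbs1, an extracellular matrix protein, rose from 15.6 and 11.2 to 118 and 87.7 CPM. Igf2bp2, an mRNA-binding protein, rose from 49.9 and 58.1 to 111 and 119.7 CPM. The median over let-7 targets was -0.33 (8.33% risen and 12.5% fallen, beside 7.35% and 3.76% of all genes). The G1 to S calls numbered 2, 1, 2 and 2 without the first and second WT library (WT 1, WT 2) and the first and second Dicer library (Dicer 1, Dicer 2). Those of let-7 targets numbered 2, 1, 1 and 3 in the same order.

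The defining markers of the stem cell were present in both groups, and the core factors were not called. Pou5f1 was at 770 and 680.4 CPM in WT and 651 and 793 CPM in the Dicer knockout. Nanog was at 597 and 606 CPM in WT and 622 and 612 CPM in the Dicer knockout. Sox2 was at 353 and 425 CPM in WT and 276 and 304 CPM in the Dicer knockout. Esrrb was at 461 and 491 CPM in WT and 360.1 and 345 CPM in the Dicer knockout. None of these 4 transcription factors passed (adjusted p = 0.99, adjusted p = 0.95, adjusted p = 0.3 and adjusted p = 0.33). Of 24 naive pluripotency genes 1 rose and 4 fell (4.17% and 16.7%, beside 7.35% and 3.76% of all genes), with a median of -0.35. The Krüppel-like factors Klf2 and Klf4, which share many targets, went opposite ways. Klf2 was at 142 and 146 CPM in WT and 702 and 782 CPM in the Dicer knockout (log2 fold change 2.36, SE 0.32, adjusted p = 0.0021). Klf4 was at 135 and 158 CPM in WT and 17.4 and 22.1 CPM in the Dicer knockout (log2 fold change -2.91, SE 0.36, adjusted p = 0.0018). Both calls held with each library left out. The nuclear receptor Nr5a2 fell from 90.3 and 130.1 to 34 and 40.8 CPM. Tcl1, a coactivator of Akt, fell from 88.4 and 80.6 to 37.4 and 33.1 CPM. Dnmt3l, the cofactor of de novo DNA methyltransferases, fell from 457 and 513 to 168 and 244 CPM. In the formative and primed list of 12 genes, Zic2, a zinc finger factor of the primed state, rose from 3.69 and 3.94 to 45.9 and 54.1 CPM (log2 fold change 3.70). Tcf15 fell from 34.8 and 41.9 to 2.18 and 6.07 CPM (log2 fold change -3.39). The 5 naive calls became 3 or 2 without the first or the second WT library and 2 or 2 without the first or the second Dicer library.

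Among the 49 gene lists, that of primitive endoderm had the highest share of fallen members. Primitive endoderm is the extraembryonic lineage that forms the yolk sac, and serum cultures of embryonic stem cells can hold some cells of it. Of 10 regulators and receptors tested, 6 fell and 1 rose, beside 3.76% of all genes that fell, and the median log2 fold change was -3.47, also with genes at 0 counts set to their bound. Gata6, the transcription factor that starts the lineage, was at 17.5 and 46.6 CPM in WT and at 0 counts in both Dicer libraries, at least 86.1-fold lower against a floor of 3 counts over the group (adjusted p = 0.019). Sox17, which acts beside it, was at 17.1 and 32.9 CPM in WT and at 1 count over both Dicer libraries (ratio of WT to Dicer 192, exact 95% counting interval 34.5 to 7608). Pdgfra, the receptor used to sort these cells, fell from 148 and 139 to 6.72 and 2.76 CPM (log2 fold change -4.79, SE 1.07, adjusted p = 0.016). Pth1r, a hormone receptor of parietal endoderm, was at 0 counts in the Dicer knockout and at least 29.9-fold lower. Serglycin (Srgn), a proteoglycan, fell from 82.5 and 85 to 4.35 and 2.21 CPM. Gata4 was at 19.3 and 38.6 CPM in WT and 4.15 and 8.27 CPM in the Dicer knockout and did not pass (adjusted p = 0.068). In these bulk samples, fewer endoderm cells and less RNA per cell cannot be told apart. The 7 calls became 4 or 1 without the first or the second WT library and 0 or 1 without the first or the second Dicer library.

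Proteins that the yolk sac endoderm uses for uptake and secretion followed, with 11 of 26 fallen, 1 risen and a median of -1.60. These shares were 3.85% risen and 42.3% fallen, beside 7.35% and 3.76% of all genes. The uptake machinery includes the giant receptor cubilin (Cubn), its membrane anchor amnionless (Amn), megalin (Lrp2) and the adaptor Dab2. Cubn was at 1052 and 981 CPM in WT and 3.76 and 3.31 CPM in the Dicer knockout (log2 fold change -8.14, SE 1.71, adjusted p = 0.012). Dab2 was at 95.6 and 162 CPM in WT and 1.38 and 1.1 CPM in the Dicer knockout (log2 fold change -6.63, SE 1.33, adjusted p = 0.01). The groups did not overlap in either, which holds for all 413 fallen genes. Lrp2 fell less, from 1509.9 and 1204 to 534 and 396 CPM (log2 fold change -1.54, SE 0.45, adjusted p = 0.048). Gpx3, a secreted glutathione peroxidase (ENSMUSG00000018339, chromosome 11 from 54902453 to 54910377), was at 24.2 and 28.3 CPM in WT and 0 counts in the Dicer knockout, at least 62.0-fold lower (adjusted p = 0.0031). Amot, a scaffold of the Hippo pathway that marks visceral endoderm, fell from 115 and 112 to 11.5 and 13.2 CPM (log2 fold change -3.21, SE 0.42, adjusted p = 0.0018). The trypsin inhibitor Spink1 fell from 31.1 and 27.5 to 0.198 and 3.86 CPM. The lysosomal protease Ctsl fell from 2163 and 1739 to 510.4 and 298 CPM. Its relative Ctsh fell from 53.6 and 59.7 to 1.38 and 0 CPM. Habp2, a plasma protease, was at 33.4 and 41.7 CPM in WT and at 3 counts over both Dicer libraries (ratio of WT to Dicer 89.6, exact 95% counting interval 30.6 to 435). With single libraries left out, Habp2, Ctsl, Ctsh and Lrp2 lost their call each time, Cubn and Dab2 kept it in 1 of 4 fits, and Amot and Gpx3 in all 4. Apom, an apolipoprotein, went the other way, from 3.87 and 2.03 to 42.9 and 30.9 CPM. Other secreted markers were not called: Apoe had a log2 fold change of 0.06 and Apob of 0.88. The 12 calls became 6 or 2 without the first or the second WT library and 2 or 4 without the first or the second Dicer library.

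The laminin and collagen chains that these endoderm cells lay down into basement membrane included some of the most abundant genes that fell. Lama1 (ENSMUSG00000032796, chromosome 17 from 67697259 to 67822647), the alpha chain of laminin-111, was at 3684 and 4312 CPM in WT and 259 and 195 CPM in the Dicer knockout (log2 fold change -4.14, SE 0.72, adjusted p = 0.005). Lamb1, its beta chain, was at 2615 and 2791 CPM in WT and 689 and 538 CPM in the Dicer knockout (log2 fold change -2.14, SE 0.37, adjusted p = 0.0049). Lamc1, the gamma chain that most laminins share, was at 4800.3 and 5810.4 CPM in WT and 3490.4 and 2159.7 CPM in the Dicer knockout and did not pass (adjusted p = 0.17). The collagen IV chains Col4a1 and Col4a2, which lie head to head on chromosome 8, both fell. Col4a1 fell from 1455 and 1685 to 109 and 64.5 CPM (log2 fold change -4.17). Col4a2 fell from 763 and 921 to 50.8 and 30.3 CPM (log2 fold change -4.35). Nephronectin (Npnt), an integrin ligand, rose from 5.16 and 3.61 to 43.1 and 25.9 CPM. The 21 genes of the list held 2 risen and 4 fallen members with a median of 0.31. These shares were 9.52% risen and 19.05% fallen, beside 7.35% and 3.76% of all genes. Called or not, 13 fold changes were positive and 8 negative, so the list as a whole did not move down with the fallen chains. Sparc, a matrix glycoprotein at 1702 and 2003 CPM in WT and 1380.1 and 978 CPM in the Dicer knockout, did not pass.

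Enzymes that modify collagen fell in 4 of 19 cases, with 1 risen (5.26% risen and 21.1% fallen, beside 7.35% and 3.76% of all genes). Plod2, a lysyl hydroxylase, fell from 513 and 461 to 61.9 and 61.2 CPM (log2 fold change -2.98, SE 0.45, adjusted p = 0.0029). The prolyl hydroxylase subunit P4ha2 fell from 314 and 311 to 72.8 and 44.1 CPM. Plod1 fell from 206 and 163 to 101 and 56.8 CPM. The lysyl oxidase Loxl2 fell from 15.9 and 12.4 to 0.791 and 2.21 CPM. Another lysyl oxidase, Loxl4, rose from 1.75 and 0.954 to 40.9 and 22.6 CPM (log2 fold change 4.60). The retrieval receptor Kdelr3 of the endoplasmic reticulum fell from 324 and 311 to 13.1 and 4.41 CPM (log2 fold change -5.06, SE 0.88, adjusted p = 0.005). In the list of 25 chaperones of this compartment 1 rose (Dnajb9) and 1 fell (Sdf2l1), or 4% each, beside 7.35% and 3.76% of all genes. Fibroblast and interstitial matrix markers fell in 3 of 13 cases (23.1%, beside 3.76% of all genes). Fbln2 fell from 14.1 and 10.2 to 2.97 and 1.65 CPM. Col6a2 fell from 7.56 and 6.76 to 0.989 and 1.1 CPM. Mmp2 fell from 99.5 and 88.6 to 27.7 and 15.4 CPM. The list's summed level was 10622 and 8909 CPM in WT and 9815 and 5660 CPM in the Dicer knockout. The basement membrane calls became 5 or 1 without the first or the second WT library and 1 or 3 without the first or the second Dicer library, the collagen enzyme calls 2, 1, 2 and 2 in the same order, and the fibroblast calls were 0 without any 1 of the libraries.

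**Figure D3:**
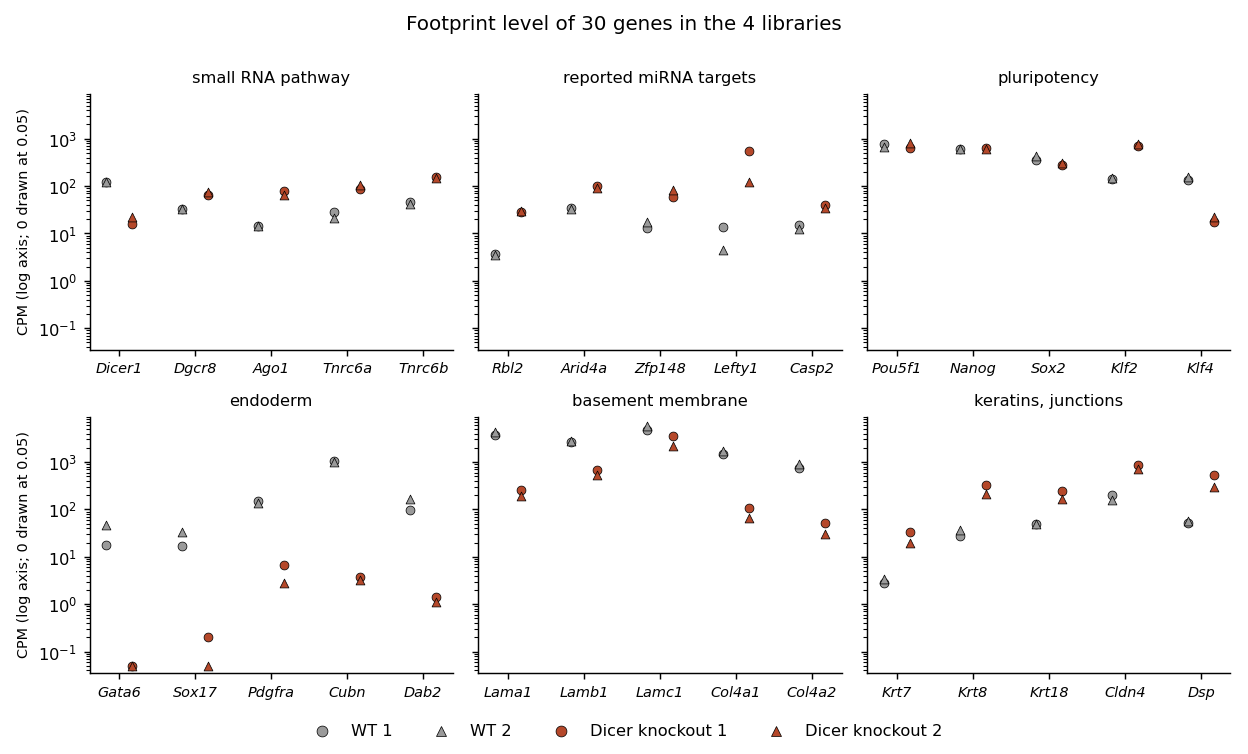
CPM (log axis, with 0 drawn at 0.05) of 30 genes in the WT libraries (grey) and the Dicer knockout libraries (red), circles for the first and triangles for the second library of each group. The pluripotency factors Pou5f1, Nanog and Sox2 lie together in both groups, the 5 endoderm genes lie far lower in the Dicer knockout, and the keratins and junction genes lie higher.

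Of 9 keratins and trophectoderm regulators 6 rose and 0 fell, with a median of 2.04. Of 36 claudin and junction genes 13 rose and 0 fell, with a median of 1.13. The risen shares were 66.7% and 36.1%, beside 7.35% of all genes. Keratins 8 and 18 pair to form the filaments of simple epithelia. Krt8 was at 26.8 and 36.5 CPM in WT and 332 and 207 CPM in the Dicer knockout (log2 fold change 3.09, SE 0.35, adjusted p = 0.0013). Krt18 was at 50.3 and 49.8 CPM in WT and 247 and 165 CPM in the Dicer knockout (log2 fold change 2.04, SE 0.29, adjusted p = 0.0026). Krt7 rose from 2.86 and 3.32 to 33.8 and 19.3 CPM. Krt19 rose from 24.2 and 46.3 to 186 and 142 CPM. Krt42 rose from 13.9 and 13.9 to 61.9 and 82.2 CPM. Elf3, an epithelial transcription factor, rose from 62.6 and 95 to 183 and 169 CPM. The trophectoderm regulators Cdx2, Eomes and Gata3 were not among the genes analysed here. Krt7, Krt8 and Krt18 lie on chromosome 15, whose genes as a whole stood higher (below).

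At cell junctions, Grhl2, a transcription factor of epithelial adhesion genes, rose from 16.2 and 12.3 to 117 and 102 CPM (log2 fold change 2.95, SE 0.45, adjusted p = 0.0029). The claudins, which seal tight junctions, rose in 3 cases. Cldn4 rose from 204 and 156 to 850.3 and 722 CPM. Cldn7 rose from 42.6 and 66.5 to 243 and 153 CPM. Cldn3 rose as well (log2 fold change 3.47, SE 0.53, adjusted p = 0.003). Desmoplakin (Dsp), which ties keratin to desmosomes, was at 52 and 56.1 CPM in WT and 528 and 299 CPM in the Dicer knockout (log2 fold change 2.94, SE 0.51, adjusted p = 0.0049). Pof1b, an actin-binding protein of tight junctions, was at 0.369 and 0 CPM in WT and 39.7 and 29.8 CPM in the Dicer knockout (log2 fold change 7.98, SE 1.18, adjusted p = 0.0026). E-cadherin (Cdh1) was already abundant at 1947 and 1842 CPM in WT and 4061 and 2501 CPM in the Dicer knockout and did not pass (adjusted p = 0.21). The 6 keratin calls became 2 or 3 without the first or the second WT library and 2 or 4 without the first or the second Dicer library, and the 13 junction calls 5 or 1 without the first or the second WT library and 5 or 11 without the first or the second Dicer library.

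Annexins and galectins, which bind membrane lipids and sugars, rose in 8 of 17 cases and fell in 0, with a median of 1.33. The risen share was 47.1%, beside 7.35% of all genes. Anxa1 was at 1.94 and 2.03 CPM in WT and 123 and 121 CPM in the Dicer knockout (log2 fold change 5.94, SE 0.61, adjusted p = 0.001), nearly the same in both libraries of a group. Lgals3, a galactoside-binding lectin, was at 23 and 10.9 CPM in WT and 216 and 196 CPM in the Dicer knockout (log2 fold change 3.62, SE 0.42, adjusted p = 0.0013). Lgals9 rose from 9.59 and 15.6 to 275 and 246 CPM. Lgals4 rose from 0.184 and 0.332 to 26.3 and 13.8 CPM. Of 41 focal adhesion and actomyosin genes 6 rose and 1 fell (14.6% and 2.44%, beside 7.35% and 3.76% of all genes), with a median of 0.09. Parva, which links integrins to actin, was at 10.8 and 12.1 CPM in WT and 84.4 and 80.5 CPM in the Dicer knockout (log2 fold change 2.85, SE 0.34, adjusted p = 0.0014). The small GTPase Rhob was at 6.73 and 7.72 CPM in WT and 47.5 and 53 CPM in the Dicer knockout (log2 fold change 2.79, SE 0.36, adjusted p = 0.0018). Cald1, a regulator of myosin, rose from 37.8 and 41.4 to 175 and 137 CPM. The integrin chain Itgb4 rose from 42.2 and 26.1 to 245 and 152 CPM. Itgb3 rose from 15 and 14.8 to 104 and 44.7 CPM. Its partner Itgav rose from 186 and 179 to 1055 and 536 CPM. Focal adhesion calls numbered 4, 3, 4 and 6 without WT 1, WT 2, Dicer 1 and Dicer 2. For the annexins and galectins the calls became 5 or 2 without the first or the second WT library and 4 or 7 without the first or the second Dicer library.

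Interferon induces genes that act against viruses. Of 33 interferon-stimulated effectors 18 rose (54.5%, beside 7.35% of all genes) and 0 fell, with a median of 2.19. Oas1a and Oas2, which make the 2-5A signal upon binding double-stranded RNA, both rose. Oas1a was at 3.23 and 3.15 CPM in WT and 27.3 and 28.1 CPM in the Dicer knockout (log2 fold change 3.12, SE 0.50, adjusted p = 0.0038). Oas2 was at 4.61 and 7.09 CPM in WT and 46.5 and 28.1 CPM in the Dicer knockout (log2 fold change 2.67, SE 0.39, adjusted p = 0.0026). Reads of Oas1a may be shared with its near-identical neighbours, such as Oas1g. Oasl2, a relative, rose from 0.553 and 0.166 to 31.8 and 18.8 CPM. The ADP-ribosyltransferases Parp9 and Parp14 rose too. Parp9 rose from 3.87 and 2.36 to 49 and 34.2 CPM. Parp14 rose from 8.67 and 8.05 to 140.2 and 62.3 CPM. Irf9, the DNA-binding part of the factor that interferon activates, rose from 4.06 and 5.52 to 28.1 and 23.7 CPM. Its partner Stat2 (log2 fold change -0.29) did not pass. Of 21 genes of double-stranded RNA sensing and signalling 2 rose and 0 fell, with a median of -0.03 (9.52% risen and 0% fallen, beside 7.35% and 3.76% of all genes). These calls numbered 0, 0, 0 and 2 without WT 1, WT 2, Dicer 1 and Dicer 2. The sensor Ddx58, known as RIG-I, rose from 20.2 and 24.1 to 71.6 and 63.4 CPM. The antiviral zinc finger protein Zc3hav1 rose from 70.3 and 90.1 to 226 and 158 CPM. The kinase Eif2ak2 (PKR) was at 25.6 and 26.5 CPM in WT and 49.4 and 45.2 CPM in the Dicer knockout and did not pass (adjusted p = 0.093).

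Among genes of peptide loading onto class I molecules, Tapbp (tapasin), which holds class I molecules at the peptide transporter, was at 30.6 and 21.9 CPM in WT and 543 and 269 CPM in the Dicer knockout (log2 fold change 3.96, SE 0.51, adjusted p = 0.0018). Erap1, which trims the peptides, was at 6.73 and 4.4 CPM in WT and 176 and 85.5 CPM in the Dicer knockout (log2 fold change 4.57, SE 0.56, adjusted p = 0.0015). Psme2, a subunit of the interferon-induced proteasome activator, rose from 14.1 and 12.4 to 87 and 50.2 CPM. It was the single called member of 41 proteasome genes (2.44% risen, beside 7.35% of all genes). The class I chains, whose reads related genes can share, H2-K1 and H2-D1 (log2 fold changes 0.02 and 0.54) and B2m (-0.96) did not pass. The 18 interferon calls became 11 or 4 without the first or the second WT library and 8 or 15 without the first or the second Dicer library. Lgals9 and Lgals3bp stand in both this list and that of galectins.

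Signalling genes were read by pathway. In the LIF and oncostatin list of 20 genes 2 rose and 2 fell (10% risen and 10% fallen, beside 7.35% and 3.76% of all genes), with 2, 1, 1 and 2 calls without WT 1, WT 2, Dicer 1 and Dicer 2. Osm, the cytokine oncostatin M, went from 0 and 0.166 to 33.2 and 18.8 CPM (log2 fold change 7.84, SE 0.97, adjusted p = 0.0018). Its kinase Jak2 rose from 3.23 and 2.2 to 14.2 and 11.6 CPM. Socs3, the feedback inhibitor that Stat3 switches on, fell from 112 and 162 to 42.7 and 41.9 CPM. Gbx2, another Stat3 target, fell from 46.8 and 47.6 to 3.36 and 7.17 CPM. In the FGF and ERK list of 26 genes 5 fell and 1 rose (3.85% risen and 19.2% fallen, beside 7.35% and 3.76% of all genes), with a median of -0.49. The fallen genes include feedback inhibitors and targets of the pathway. Spry4 fell from 118 and 129 to 15.4 and 28.7 CPM (log2 fold change -2.52, SE 0.42, adjusted p = 0.0043). The phosphatase Dusp4 fell from 24.6 and 39.4 to 1.78 and 4.41 CPM. The transcription factor Etv4 fell from 61.1 and 66.2 to 14.8 and 18.2 CPM. The receptors Fgfr3 and Fgfr4 fell as well, Fgfr3 to 2 counts over both Dicer libraries (ratio of WT to Dicer 31.1, exact 95% counting interval 8.55 to 258). The exchange factor Sos1 rose from 38 and 28.7 to 82.9 and 75.6 CPM. The 6 FGF calls became 2 or 1 without the first or the second WT library and 0 or 3 without the first or the second Dicer library.

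In the Nodal and TGF-beta list of 24 genes 3 rose and 1 fell (12.5% and 4.17%, beside 7.35% and 3.76% of all genes). Besides Lefty1, the ligand Gdf3 was at 172 and 104 CPM in WT and 679 and 519 CPM in the Dicer knockout (log2 fold change 2.12, SE 0.33, adjusted p = 0.0032). The ligand Tgfb1 fell from 25.8 and 25.2 to 6.72 and 4.96 CPM. Of 17 BMP pathway genes 0 rose and 1 fell (0% and 5.88%, beside 7.35% and 3.76% of all genes). The fallen one was Bmp4, from 103 and 77.3 to 23.7 and 17.1 CPM (log2 fold change -2.12, SE 0.40, adjusted p = 0.0071). In the Wnt list of 29 genes 4 rose and 2 fell (13.8% and 6.9%, beside 7.35% and 3.76% of all genes). Notum, an extracellular enzyme that inactivates Wnt ligands, was at 24.9 and 13.7 CPM in WT and 429.7 and 211 CPM in the Dicer knockout (log2 fold change 4.06, SE 0.59, adjusted p = 0.0026), a call that held with each library left out. The ligand Wnt3a rose from 1.11 and 0.332 to 6.92 and 9.93 CPM. Of the Frizzled receptors, Fzd6 rose from 9.68 and 5.97 to 84.4 and 39.7 CPM. Fzd2 rose from 9.59 and 7.72 to 33.2 and 24.3 CPM. Fzd5 fell from 423 and 448 to 151 and 98.2 CPM. The effector Tcf7 fell from 24.9 and 26.1 to 7.51 and 7.72 CPM. Dkk1, a Wnt inhibitor also listed as a miR-302 target, had a log2 fold change of -5.97 and did not pass (adjusted p = 0.065). In the Hippo list of 20 genes 3 rose and 1 fell (15% and 5%, beside 7.35% and 3.76% of all genes). Amotl1, a relative of Amot, rose from 14.3 and 13.4 to 46.9 and 48.5 CPM. The tumour suppressor Nf2 rose from 29.1 and 23.6 to 112 and 108 CPM, and Mob1b also rose, while Amot fell. Wnt calls numbered 3, 1, 2 and 2 without WT 1, WT 2, Dicer 1 and Dicer 2, Nodal and TGF-beta calls 2, 0, 2 and 3, BMP calls 1, 1, 0 and 0 and Hippo calls 1, 1, 2 and 3 in the same order.

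In metabolism, of 29 glycolysis and lactate genes 7 fell and 1 rose, with a median of -0.98. These shares were 3.45% risen and 24.1% fallen, beside 7.35% and 3.76% of all genes. The summed level of the list was 20875 and 19540 CPM in WT and 9228 and 8499 CPM in the Dicer knockout. The glucose transporter Slc2a3 was at 6979 and 5054 CPM in WT and 2045 and 1571 CPM in the Dicer knockout (log2 fold change -1.73, SE 0.31, adjusted p = 0.0061). Slc2a1 was at 4345 and 3294 CPM in WT and 1477 and 1170 CPM in the Dicer knockout (log2 fold change -1.53, SE 0.32, adjusted p = 0.013). The lactate exporters Slc16a3 and Slc16a1 fell as well. Slc16a3 fell from 569 and 481 to 122 and 94.3 CPM. Slc16a1 fell from 975 and 699 to 404 and 249.9 CPM. Lactate dehydrogenase B (Ldhb) fell from 422 and 608 to 172 and 191 CPM. The aldolase Aldoc fell from 45.5 and 75.1 to 22.1 and 14.9 CPM. Of 36 sterol and fatty acid synthesis genes 6 fell (16.7%, beside 3.76% of all genes) and 0 rose, with a median of -0.45. Msmo1, a sterol oxidase, fell from 539.9 and 412 to 186 and 122 CPM. The desaturase Scd2 fell from 1014 and 1073 to 596 and 309 CPM. Metallothioneins, small proteins that bind zinc and copper, rose. Mt2 was at 535 and 475 CPM in WT and 4870.1 and 3613 CPM in the Dicer knockout (log2 fold change 3.07, SE 0.34, adjusted p = 0.0011). Mt1 was at 136 and 169 CPM in WT and 1026 and 632 CPM in the Dicer knockout (log2 fold change 2.44, SE 0.39, adjusted p = 0.0037). The glycolysis calls became 3 or 2 without the first or the second WT library and 2 or 2 without the first or the second Dicer library, and the sterol and fatty acid calls were 0 without any 1 of the libraries.

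Of 76 mitochondrial ribosomal proteins 7 fell (9.21%) and 0 rose, with a median of -0.39. Of 79 oxidative phosphorylation genes 3 fell and 0 rose, with a median of -0.49. The second share, 3.80%, is close to the 3.76% of all genes that fell. Mrpl34 fell from 72.6 and 61.7 to 28.5 and 21 CPM. Sdhd, a subunit of succinate dehydrogenase, fell from 132 and 129 to 48.6 and 56.3 CPM. Among 80 cytosolic ribosomal protein genes 0 rose and 1 fell (0% and 1.25%, beside 7.35% and 3.76% of all genes), with a median of -0.10. The fallen one was Rps27l, a variant that p53 is known to induce, from 119 and 155 to 40.9 and 53 CPM. Of 21 aminoacyl-tRNA synthetases 0 were called by edgeR, while 2 had an unadjusted p under 0.05 there, and DESeq2 and limma-voom called 0. Of 45 translation factors 1 fell (2.22%, beside 3.76% of all genes), the initiation factor Eif1ax, from 134 and 140 to 56 and 57.4 CPM. The calls in both mitochondrial lists were 0 without any 1 of the libraries.

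In the chromatin lists, Zbtb38, a reader of methylated DNA, was at 12.7 and 17.2 CPM in WT and 81.7 and 100.4 CPM in the Dicer knockout (log2 fold change 2.60, SE 0.30, adjusted p = 0.0013). It was the risen 1 of 19 DNA methylation genes, and Dnmt3l the fallen one (5.26% each, beside 7.35% and 3.76% of all genes). Dnmt3a, at 100.4 and 89.9 CPM in WT and 77.7 and 118 CPM in the Dicer knockout, did not pass. Dnmt3b was at 107 and 146 CPM in WT and 165 and 207 CPM in the Dicer knockout and did not pass either. Of 31 Polycomb genes 3 rose and 0 fell (9.68% risen and 0% fallen, beside 7.35% and 3.76% of all genes), with a median of -0.03. Phc3 rose from 6.55 and 6.31 to 34.6 and 28.7 CPM. Aebp2 rose from 51.3 and 49.8 to 138 and 163 CPM. Bcor rose from 31.6 and 32.3 to 90.4 and 91 CPM. The 3′ UTR of Phc3 held 4 AGCACTT sites. Polycomb calls numbered 2, 0, 2 and 2 without WT 1, WT 2, Dicer 1 and Dicer 2. Of 32 germline genes 7 fell and 4 rose (12.5% risen and 21.9% fallen, beside 7.35% and 3.76% of all genes), with a median of -0.93. The testis histone Hist1h1t fell from 25.3 and 28.2 to 1.38 and 1.1 CPM (log2 fold change -4.37, SE 0.68, adjusted p = 0.0033). Tex15 fell from 23.5 and 24.4 to 2.97 and 3.31 CPM. The testis ribosomal protein Rpl10l rose from 53.9 and 43.3 to 205 and 229 CPM. Rhox9 rose from 2.67 and 0.788 to 35.6 and 55.2 CPM, though its reads cannot be told apart from those of its near-identical neighbours. Of 4 genes of the 2-cell-like state 2 rose (50%, beside 7.35% of all genes), Zscan4d and Tmem92. Zscan4d, whose near-identical copies can share its reads, had 2 counts over both WT libraries (ratio of Dicer to WT 153, exact 95% counting interval 40.5 to 1289). Tmem92 rose from 1.11 and 0.332 to 14 and 8.27 CPM. Among 8 neural markers 3 rose and 0 fell (37.5% and 0%, beside 7.35% and 3.76% of all genes). The members went both ways, with 5 positive and 3 negative fold changes. Their summed level was 833 and 686 CPM in WT and 755 and 649 CPM in the Dicer knockout. Dpysl3, a cytoskeletal protein of neurons, rose from 11.2 and 9.46 to 111 and 112 CPM (log2 fold change 3.44, SE 0.43, adjusted p = 0.0018). Nes rose from 18.9 and 17.5 to 61.3 and 54.6 CPM. Crmp1 rose from 15.6 and 14 to 46.1 and 34.8 CPM. Germline calls numbered 4, 1, 1 and 5 without WT 1, WT 2, Dicer 1 and Dicer 2, those of the 2-cell-like list 2, 0, 1 and 2 and those of the neural list 1, 1, 1 and 2 in the same order.

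**Figure D4:**
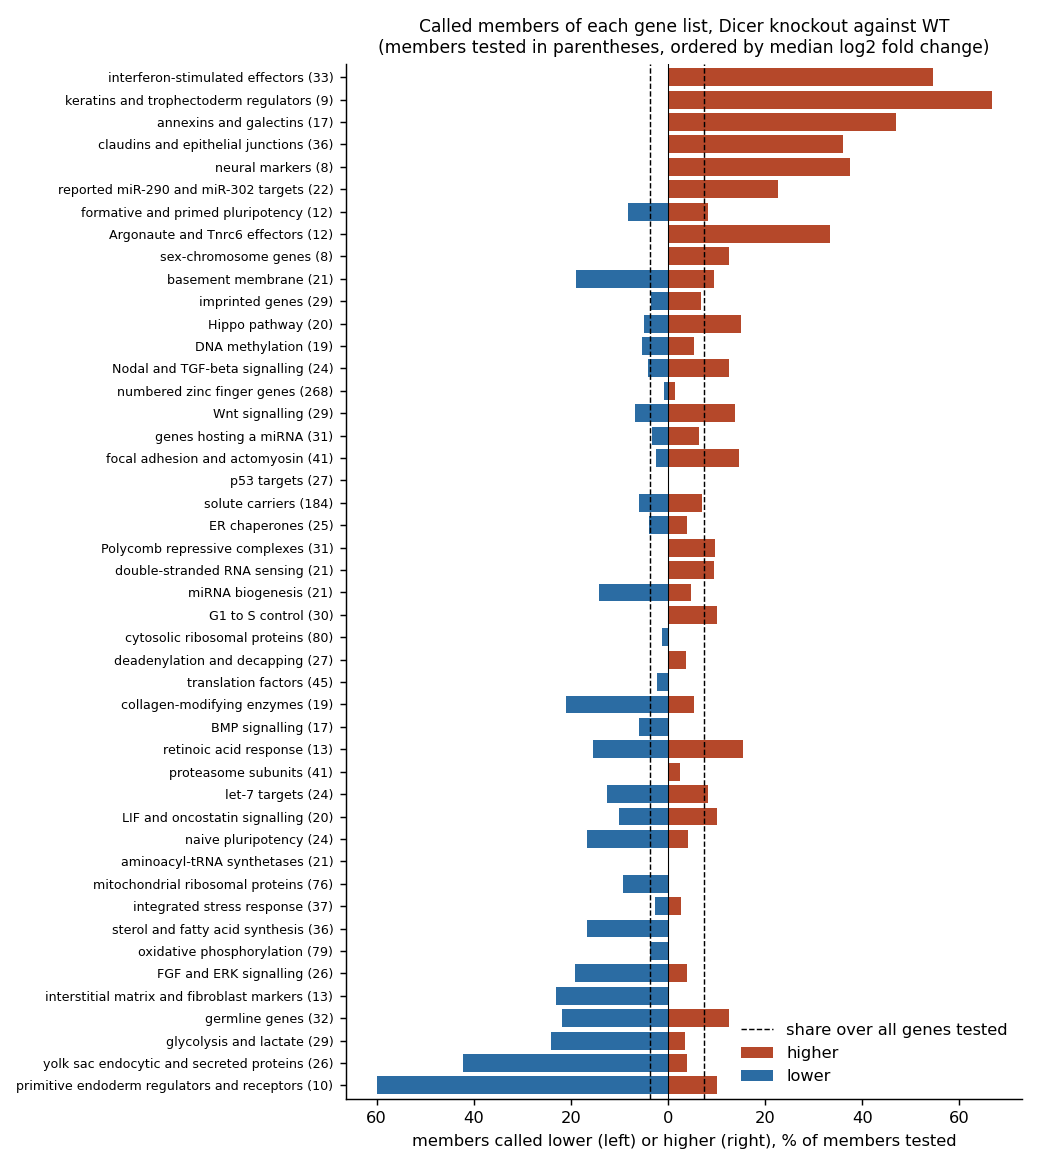
Share of tested members called lower (blue, left) or higher (red, right) in each gene list with at least 8 members tested, with dashed lines at the share over all genes, 7.35% risen and 3.76% fallen. Interferon effectors, keratins, annexins and galectins, and junction genes extend to the right, endoderm lists to the left, and p53 targets and aminoacyl-tRNA synthetases have no bar.

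Large rises included genes known from epithelia and muscle. Mesothelin (Msln) was at 4.43 and 4.11 CPM in WT and 496 and 367 CPM in the Dicer knockout. Smyd1, a muscle methyltransferase, was at 0.184 and 0.166 CPM in WT and 32.4 and 38.6 CPM in the Dicer knockout. The protease Tmprss3 was at 0.369 and 0.166 CPM in WT and 44.7 and 28.1 CPM in the Dicer knockout. Capn3, a muscle calpain, was at 0.922 and 0.788 CPM in WT and 57.9 and 71.2 CPM in the Dicer knockout (log2 fold change 6.24). Properdin (Cfp), which stabilises complement, rose from 1.2 and 0.622 to 78.5 and 75.6 CPM. The lipid flippase Atp8b1 rose from 0.922 and 0.166 to 49.8 and 17.1 CPM. The secreted protein C1qtnf9 rose from 0.553 and 0 to 35.6 and 26.5 CPM. Of these 7 genes, all but Cfp kept their call with each library left out, and Cfp lost it without the second WT library. At high levels, alkaline phosphatase (Alpl), an enzyme long used to stain stem cells, rose from 608 and 398 to 1726 and 1114 CPM. The giant ligase Rnf213 rose from 177 and 169 to 1103 and 739 CPM. The adhesion receptor Pecam1 rose from 278 and 203 to 982 and 578 CPM. Alpl and Pecam1 lost their call in most of the fits with 1 library left out, and Rnf213 without the second WT library.

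Large falls were also seen in genes that are not on the endoderm lists. Matn3, a matrix protein of cartilage, was at 39.6 and 37.5 CPM in WT and 0.395 and 1.1 CPM in the Dicer knockout (log2 fold change -5.97, SE 0.75, adjusted p = 0.0018). Crabp1, which binds retinoic acid in the cytoplasm, was at 65.3 and 71 CPM in WT and 2.97 and 3.86 CPM in the Dicer knockout (log2 fold change -4.37, SE 0.64, adjusted p = 0.0026). The phospholipase Pla2g1b was at 37.3 and 34 CPM in WT and 0.989 and 2.76 CPM in the Dicer knockout (log2 fold change -4.50, SE 0.67, adjusted p = 0.0028). Each of the 3 kept its call with each library left out. At high levels Igfbp2, which binds insulin-like growth factors, was at 2625 and 2744 CPM in WT and 508 and 334 CPM in the Dicer knockout (log2 fold change -2.67, SE 0.39, adjusted p = 0.0026). The histone variant gene H2afx fell from 987 and 1361 to 493 and 414 CPM. Mcm6, part of the replicative helicase, fell from 971 and 1267 to 473 and 517 CPM. Igfbp2 kept its call with each library left out, whereas H2afx and Mcm6 lost theirs whichever library was left out.

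Drosha acts before Dicer and the Argonautes act after it, and direct contrasts, which leave WT out, show where the Dicer knockout differed from those lines. Against the Drosha knockout 1 gene of 10978 was called (0.00911%), Drosha itself, at 24.3 and 34.5 CPM there and 229 and 215 CPM in the Dicer knockout. In the same edgeR contrast 829 genes had an unadjusted p under 0.05, and DESeq2 called 67 genes and limma-voom 0. So few calls do not show that the lines are alike. Without any 1 of the libraries compared, between 0 and 2 genes were called. Against the Ago1 and Ago2 knockout 60 genes were called (0.547%), 36 higher (0.328%) and 24 lower (0.219%) in the Dicer knockout.

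Of all genes 0.328% stood higher than in the Ago knockout. Such calls were made for 3 of 9 keratins and trophectoderm regulators and 3 of 17 annexins and galectins. They were also made for 1 of 41 focal adhesion, 1 of 36 junction and 1 of 12 Argonaute and Tnrc6 genes. In the lists of 33 interferon effectors, 10 primitive endoderm, 26 yolk sac and 21 basement membrane genes, 0 members were called higher and 0 lower. No test of these lists was made, and so few calls do not show that the lines are alike. Krt8 was at 332 and 207 CPM in the Dicer and 29.6 and 24.8 CPM in the Ago knockout (log2 fold change 3.31, SE 0.35, adjusted p = 0.0022). Krt18 was at 247 and 165 CPM in the Dicer and 48.1 and 38.9 CPM in the Ago knockout (log2 fold change 2.25, SE 0.29, adjusted p = 0.0099). Krt19 was at 186 and 142 CPM in the Dicer and 27 and 26.5 CPM in the Ago knockout (log2 fold change 2.62, SE 0.40, adjusted p = 0.022). Parva was at 84.4 and 80.5 CPM in the Dicer and 7.43 and 7.2 CPM in the Ago knockout (log2 fold change 3.50, SE 0.35, adjusted p = 0.0022). Anxa3 was at 39.2 and 49.6 CPM in the Dicer and 2.55 and 3.67 CPM in the Ago knockout (log2 fold change 3.81, SE 0.41, adjusted p = 0.0022). Anxa1 stood at 123 and 121 CPM in the Dicer and 17.3 and 12.1 CPM in the Ago knockout (log2 fold change 3.06, SE 0.52, adjusted p = 0.031). Gsn, an actin-severing protein, stood at 154 and 89.9 CPM in the Dicer and 16.5 and 12.3 CPM in the Ago knockout (log2 fold change 3.09, SE 0.40, adjusted p = 0.0099). Erap1 was at 176 and 85.5 CPM in the Dicer and 11 and 10.1 CPM in the Ago knockout (log2 fold change 3.64, SE 0.53, adjusted p = 0.017). In WT, Krt8 was at 26.8 and 36.5 CPM and Parva at 10.8 and 12.1 CPM. As for the targeted genes, Ago2 was at 135 and 135 CPM in the Dicer and 14.9 and 6.61 CPM in the Ago knockout (log2 fold change 3.66, SE 0.39, adjusted p = 0.0022). Ago1 was at 27 and 10.7 CPM in the Ago knockout and 14.7 and 14.3 CPM in WT, so the Ago knockout libraries lay on either side of WT. As with Dicer1, counts over the whole gene do not show whether a working protein was made.

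Lower than in the Ago knockout were Ctcfl, the germline relative of the insulator protein CTCF, and several genes that had fallen against WT. Ctcfl was at 0.593 and 0.552 CPM in the Dicer knockout, 0.738 and 1.41 CPM in WT and 70 and 183 CPM in the Ago knockout (log2 fold change -7.75, SE 0.83, adjusted p = 0.0022). Sema5b, a guidance protein, was at 2.57 and 2.21 CPM in the Dicer and 27.5 and 20.3 CPM in the Ago knockout (log2 fold change -3.29, SE 0.45, adjusted p = 0.012), with WT at 32.2 and 37.5 CPM. Tro, a trophinin, was at 4.15 and 4.41 CPM in the Dicer and 31.6 and 39.5 CPM in the Ago knockout (log2 fold change -3.06, SE 0.45, adjusted p = 0.017). Crabp1 was at 2.97 and 3.86 CPM in the Dicer and 19.5 and 50.6 CPM in the Ago knockout, Matn3 at 0.395 and 1.1 CPM in the Dicer and 15.9 and 6.52 CPM in the Ago knockout, and Fbln2 at 2.97 and 1.65 CPM in the Dicer and 29.3 and 19.9 CPM in the Ago knockout. The 60 calls became 157 or 4 without the first or the second Ago library and 4 or 18 without the first or the second Dicer library.

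Results also differed by chromosome. Genes of chromosome 1 had a median log2 fold change of -0.36 in the Dicer knockout over 614 genes, with 59 fallen (9.61%) and 36 risen (5.86%). Those of chromosome 15 had a median of 0.33 over 452 genes, with 59 risen (13.1%) and 4 fallen (0.885%). The shares over all genes were 7.35% risen and 3.76% fallen. For the other autosomes and X the medians lay between -0.12 and 0.10. Both shifts ran along the whole chromosome: in 20-megabase segments the medians were -0.59 to -0.17 on chromosome 1 and 0.19 to 0.50 on chromosome 15. In single libraries, as the median of log2(CPM + 1) minus the WT mean, chromosome 1 stood at -0.333 and -0.366 in the Dicer knockout, and at -0.0793 and 0.0793 in the WT libraries. Chromosome 15 stood at 0.376 and 0.229 in the Dicer knockout and at 0.0771 and -0.0771 in WT. The other lines are measured against the same WT libraries: on chromosome 1 the Ago knockout stood at -0.411 and -0.449, and on chromosome 15 at 0.433 and 0.406. The libraries labelled Dgcr8 knockout, which are not drawn, stood at -0.368 and -0.442 on chromosome 1 but at 0.0761 and -0.0588 on chromosome 15. Genes named above on chromosome 1 include Igfbp2, Mcm6, Nr5a2, Gbx2, Fzd5 and Sox17, which fell, and Lefty1, which rose, and those on chromosome 15 include Krt7, Krt8, Krt18, Tnrc6b, Grhl2, Fzd6 and Kdelr3, the last of which fell. The part of the chromosome shifts in those genes' values was not tested.

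**Figure D5:**
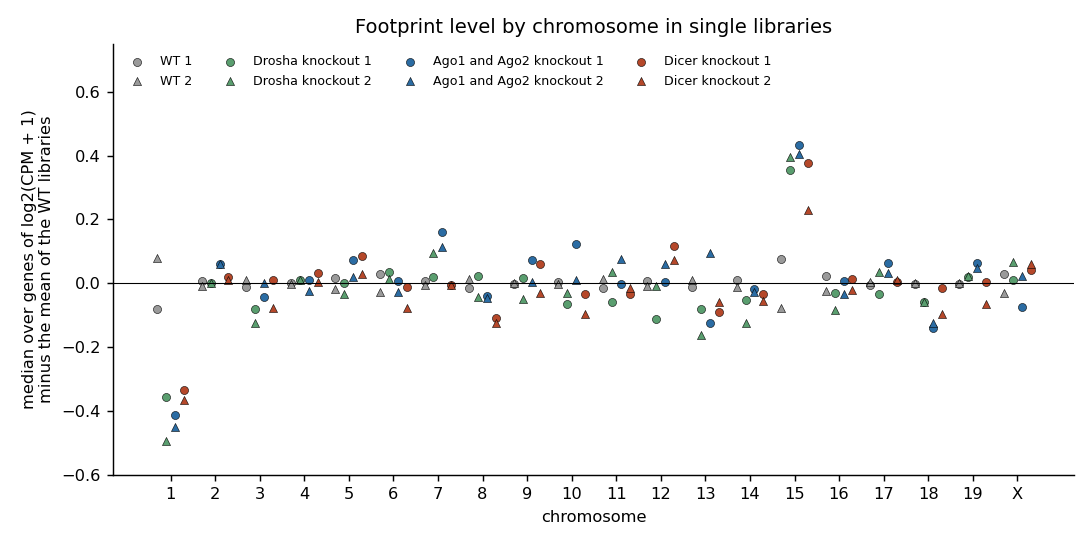
Median over the tested genes of each chromosome of log2(CPM + 1) minus the mean of the 2 WT libraries, for single libraries of WT (grey), the Drosha knockout (green), the Ago1 and Ago2 knockout (blue) and the Dicer knockout (red). Chromosome 1 lies below 0 and chromosome 15 above 0 in all 6 knockout libraries drawn, all of which are set against the same WT libraries.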

How the data were processed

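Ribosome footprints were sequenced in 10 libraries of E14 mouse embryonic stem cells, 2 for each of 5 genotypes. The deposited values are whole-number counts of footprint reads per gene, not normalized by the authors. The submitters' processing notes name Trimmomatic and Bowtie2 and the builds mm10 (GRCm38) and, for Drosophila spike-ins, dm6 (BDGP6). The counting tool, its annotation and its use of strand are not given in the sources used here, and the table holds no spike-in rows, so levels are relative to the other genes of a library. All 11011 gene IDs matched GENCODE M21, and 16 symbols that a spreadsheet had turned into dates were restored from their IDs.

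Counts were fitted with edgeR 4.0.16 in R 4.3.3: TMM scaling, filterByExpr with the 5 groups, 1 mean per group over all 10 libraries, which share 1 estimate of the spread, and 2-sided quasi-likelihood tests with Benjamini-Hochberg adjustment at 0.05. The SE is the fold change divided by the root of F. Total counts ranged from 1754710 to 80850950 among the libraries, and footprint reads carry no molecular identifiers, so every interval or floor reflects counting error alone. The fit includes the 2 libraries labelled Dgcr8 knockout, in which footprints of Dgcr8 go against the label. Gene lists are described by counts and medians, with no set test.

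The members and gene lists were chosen with earlier results of these data known. Genes named were the targeted genes, the 12 per direction with the largest change among called genes whose higher group reached a mean of 20 CPM, the 10 per direction with the highest mean CPM, up to 6 called members per list by adjusted p with its defining members, and up to 8 per direction against another knockout. A few further list members, and genes picked to show a site or a chromosome, were chosen after their values were seen. Alternatives were other scalings (total counts, RLE, upper quartile), other filters, DESeq2 1.42.0, limma-voom (limma 3.58.1), a replicate block, only the libraries compared, and each library left out. A fit without the libraries labelled Dgcr8 knockout, and sites without B1 flanks, were added after seeing the data. A few genes that the naming rule covers are not reported here.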

Additional observations from a re-analysis of the deposited data

How the results depend on the processing

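With 2 libraries a group, the number of calls depends on the settings. The 1220 genes called for the Dicer knockout against WT became 1874 with DESeq2, 1877 with the replicate block and 3224 with only the libraries compared, and 139 to 527 with 1 library left out. With limma-voom 76.5% of 1045 calls were higher, beside 66.2% of the 1220. The labels do not say that a replicate number marks a shared culture or day, and 2 numbers are too few to show pairing from the data, so the replicate block is given here only. Deviations of same-numbered libraries correlated with r = 0.141 for Dicer and WT, 0.235 for Dicer and Drosha, 0.287 for Dicer and Ago and 0.208 for Dicer and the libraries labelled Dgcr8 knockout. With the replicate block, calls among p53 targets went from 0 to 4. Against the Drosha knockout, 1 call became 67 with DESeq2, 6 with the replicate block, 0 with limma-voom, 0 with only the libraries compared and 0 to 2 with 1 library left out. Against the Ago1 and Ago2 knockout, 60 calls became 377 with DESeq2, 121 with limma-voom, 212 with the replicate block, 28 with only the libraries compared, 91 without the libraries labelled Dgcr8 knockout and 4 to 157 with 1 library left out. The fits that leave libraries out also hold fewer samples, and the cause of these differences was not tested. The seed-site difference of 0.26 was 0.355 with 8-base sites alone and 0.230 to 0.304 with 1 library left out. The fall of Dicer1 kept its call under every alternative run, at -2.98 to -2.47 with 1 library left out. The 203 named called genes kept their direction under every alternative that tested them (199 of them with the filter at a mean of 5 CPM), and 51 to 117 kept their call with 1 library left out. These genes were picked because they were called, and in all called genes the 2 groups did not overlap. Their direction therefore had little room to change, and its being kept is no separate support. At 1754710 counts, the second Dicer library limits what can be said of genes with few counts.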

Other observations

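Transporters were a broad family in which changes went both ways. Of 184 solute carriers 13 rose (7.07%) and 11 fell (5.98%), beside 7.35% and 3.76% of all genes, with a median log2 fold change of 0.00. The 24 calls numbered 6, 3, 5 and 7 without the first and second WT and the first and second Dicer library. Slc25a20, which carries acylcarnitines into mitochondria, rose from 52.2 and 36.5 to 203 and 195 CPM (log2 fold change 2.17, SE 0.33, adjusted p = 0.0032). The nucleoside transporter Slc29a1 fell from 1257 and 901 to 397 and 344 CPM (log2 fold change -1.54, SE 0.30, adjusted p = 0.0082). In the retinoic acid list of 13 genes 2 rose and 2 fell (15.4% each, beside 7.35% and 3.76% of all genes). The receptor Rarg rose from 63.2 and 27.3 to 119.6 and 130.2 CPM. The retinaldehyde reductase Dhrs3 rose from 0.922 and 1.91 to 15.4 and 6.62 CPM. Crabp1 fell as described and Stra6, a membrane receptor for retinol transport, fell from 20 and 22.2 to 1.98 and 0.552 CPM.

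Among 31 genes that host a miRNA in their transcript 2 rose and 1 fell (6.45% risen and 3.23% fallen, beside 7.35% and 3.76% of all genes), with a median of 0.15. These calls numbered 0, 0, 0 and 1 without the first and second WT and the first and second Dicer library. Pank3, a pantothenate kinase gene that hosts a member of the miR-103 and miR-107 family, rose from 14.8 and 16.1 to 51.8 and 38.6 CPM (log2 fold change 1.56, SE 0.32, adjusted p = 0.012). Egfl7, which hosts miR-126, fell from 58 and 53.8 to 24.5 and 21.5 CPM (log2 fold change -1.27, SE 0.33, adjusted p = 0.03). Of 268 numbered zinc finger genes 4 rose (1.49%) and 2 fell (0.746%), below the shares over all genes. Zfp367 rose from 5.16 and 6.14 to 35.8 and 39.2 CPM (log2 fold change 2.72, SE 0.39, adjusted p = 0.0026). Zfp281 fell from 138 and 188 to 73.2 and 65.1 CPM (log2 fold change -1.23, SE 0.29, adjusted p = 0.019). Of 29 imprinted genes 2 rose and 1 fell (6.9% risen and 3.45% fallen, beside 7.35% and 3.76% of all genes), and all 3 calls were lost without any 1 of the 4 libraries. Peg3, a paternally expressed zinc finger gene, rose from 32 and 49.6 to 111 and 104 CPM. On the Y chromosome 2 of 5 tested genes rose (40%, beside 7.35% of all genes), among them the helicase Ddx3y. Ddx3y was at 32.9 and 10.4 CPM in WT and 156 and 156 CPM in the Dicer knockout (log2 fold change 2.86, SE 0.72, adjusted p = 0.027). Its WT libraries differed from each other more than its Dicer libraries did.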
